A study of Homo sapiens with 3 samples.

Results

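Receptor tyrosine kinases are cell surface receptors that bind growth factors, guidance cues or matrix outside the cell and carry a kinase domain inside it. A bound ligand brings receptor chains together, the chains phosphorylate each other on tyrosine, and adaptor proteins that read phosphotyrosine pass the signal to the RAS-MAPK and PI3K-AKT pathways. In epithelial cells they are best known for driving growth, survival and migration, and several members act mainly in endothelial, blood, neural or muscle cells. The genes described here were chosen by name, as a list of 50 human receptor tyrosine kinase genes, and the rule used no measured value, although earlier results of these data were known when the list was drawn up. Of these, 46 were measured, out of 18417 genes measured in all. RET, ROS1 and ALK lie only on probe sets that also carry other gene names. These 3 genes and EPHB2 were not analysed here.

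The levels come from C33A cells, an established human cervical carcinoma line, in 3 independent cultures that grew exponentially without treatment in serum-supplemented medium. Each culture was measured on 1 Affymetrix Human Gene 1.0 ST array. The arrays thus hold 1 line and 1 condition, no contrast was tested, and the spread given is that between cultures. Levels are log2 intensities after Robust Multichip Average normalization, and Pearson's r over all probe sets was 0.993 to 0.994 for each pairing of cultures. With 3 cultures the precision is limited.

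The values carry no call of presence or absence. Each level was therefore set against a background bound of 6.42 log2, under which lay 95% of 459 genes from families silent in most tissues (beta-defensins, keratin-associated proteins, and the receptors of smell and taste). These families differ. Of the 23 such genes above the bound, 22 encode keratin-associated proteins, 32.8% of the 67 genes of that family, against 0 of 341 olfactory receptor genes. Other choices of percentile and family put the bound between 5.37 and 7.88 log2, and the text says which members of the list that changes. Probe sets differ, by sequence, in how strongly they bind their target. The order of different genes is therefore approximate, and a level under the bound is not a measured absence of transcript. Of 5 epithelial marker genes, KRT18 exceeded the bound, at 7.75 ± 0.11 log2 (SD, n = 3 cultures). The other 4 did not, among them the adhesion genes CDH1 at 4.95 ± 0.09 (SD, n = 3) and EPCAM at 4.52 ± 0.29 (SD, n = 3). Of the endothelial, fibroblast and leukocyte markers, 1 of 6, 3 of 6 and 2 of 5 exceeded the bound, against 56.4% of all measured genes. The endothelial one was CLDN5 at 6.89 ± 0.06 (SD, n = 3). The fibroblast ones were the collagen genes COL3A1 at 11.36 ± 0.06 and COL1A1 at 7.24 ± 0.14, and THY1 at 7.59 ± 0.13 (SD, n = 3 each). The leukocyte ones were the phosphatase gene PTPRC at 8.82 ± 0.11 and CD68 at 6.90 ± 0.06 (SD, n = 3 each). The others, among them CDH5, PECAM1, DCN, LUM and CD3E, lay below. All samples are of 1 cell line, so these marker levels describe that line, and their relation to the receptor levels was not tested.

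Most receptor tyrosine kinase genes had low signal in C33A cells. Of the 46 members, 15 (32.6%) exceeded the bound, against 56.4% of all measured genes. The median level was 5.60 log2 for members, with quartiles of 5.01 and 7.50, and 6.91 log2 for all genes, with quartiles of 5.18 and 8.68. Taken per array, the median of members was 5.66, 5.60 and 5.59 log2, and that of all genes 6.92, 6.92 and 6.90 log2. All genes were also cut into tertiles of level, each holding by construction 6139 of the 18417 genes. The highest tertile, above 8.14 log2, held 9 members (19.6%), and the lowest, up to 5.74 log2, held 25 members (54.3%). These counts describe the list, and no test was made over its genes.

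**Figure D1:**
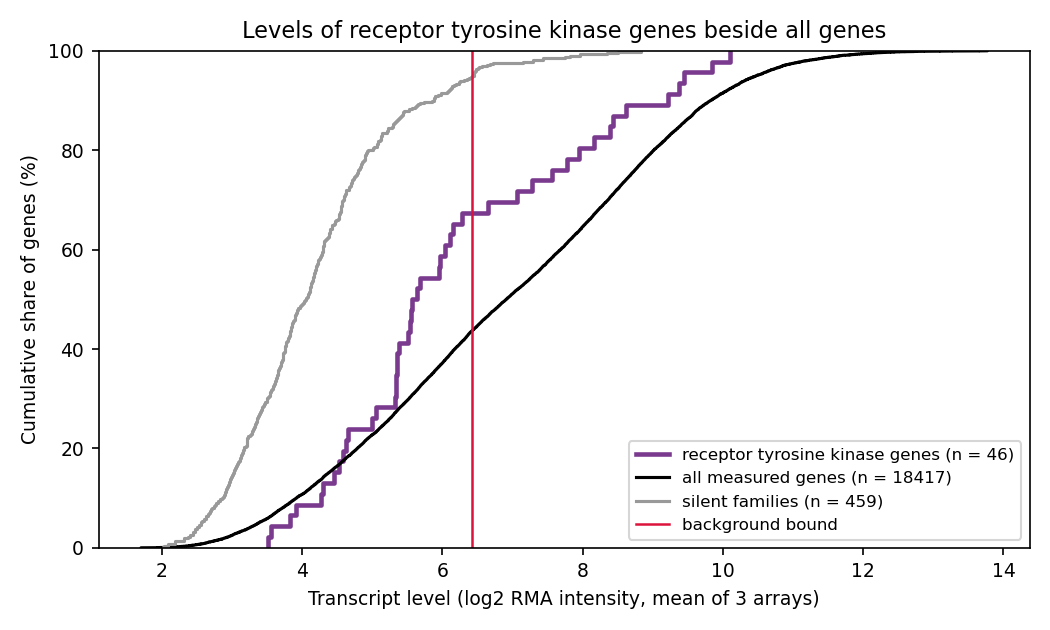
Cumulative share of genes (y axis, %) up to a given transcript level (x axis, log2 RMA intensity, mean of 3 arrays) for 46 receptor tyrosine kinase genes, all 18417 measured genes and 459 genes of silent families. At the bound of 6.42 log2 (red line) the receptor curve has passed 31 of 46 genes, and it lies between the curves of all genes and of the silent families there.

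The 15 members above the bound exceeded it on each of the 3 arrays, and the other 31 did so on none. Just inside it lay FGFR3 at 6.66 ± 0.08, FGFR4 at 7.07 ± 0.08 and EPHA2 at 7.28 ± 0.12 log2 (SD, n = 3 each). Just outside lay EPHB3 at 6.28 ± 0.05, PDGFRA at 6.15 ± 0.01 and EPHB6 at 6.11 ± 0.12 log2 (SD, n = 3 each). The bound moves these genes. With the 99th percentile in place of the 95th, 10 members remained above (RYK, ERBB4, ERBB2, EPHB4, PTK7, ROR1, FGFR1, MERTK, TYRO3 and DDR1), 21.7% of them against 37.2% of all genes. DDR1, at 7.94 ± 0.13 log2 (SD, n = 3), passed this bound of 7.88 log2 by less than its SD. With olfactory receptor genes as the only silent family, 28 members were above the bound of 5.37 log2. Gained were AXL, CSF1R, EPHA1, EPHB3, EPHB6, FGFR2, FLT4, INSRR, LTK, NTRK3, PDGFRA, PDGFRB and ROR2. All of these but CSF1R also passed without the keratin-associated protein genes. AXL, EPHB3, EPHB6, FLT4, PDGFRA and ROR2 also passed with the 90th percentile. The 18 members not above the olfactory receptor bound make up 39.1% of the list, against 27.8% of all genes, and include EGFR, ERBB3, MET and KIT. Of these 18, MST1R, MET, EPHA4, ERBB3 and EPHB1 lay within their SD of that bound. The remaining 18 members lay between the olfactory receptor bound and the 99th percentile bound.

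**Figure D2:**
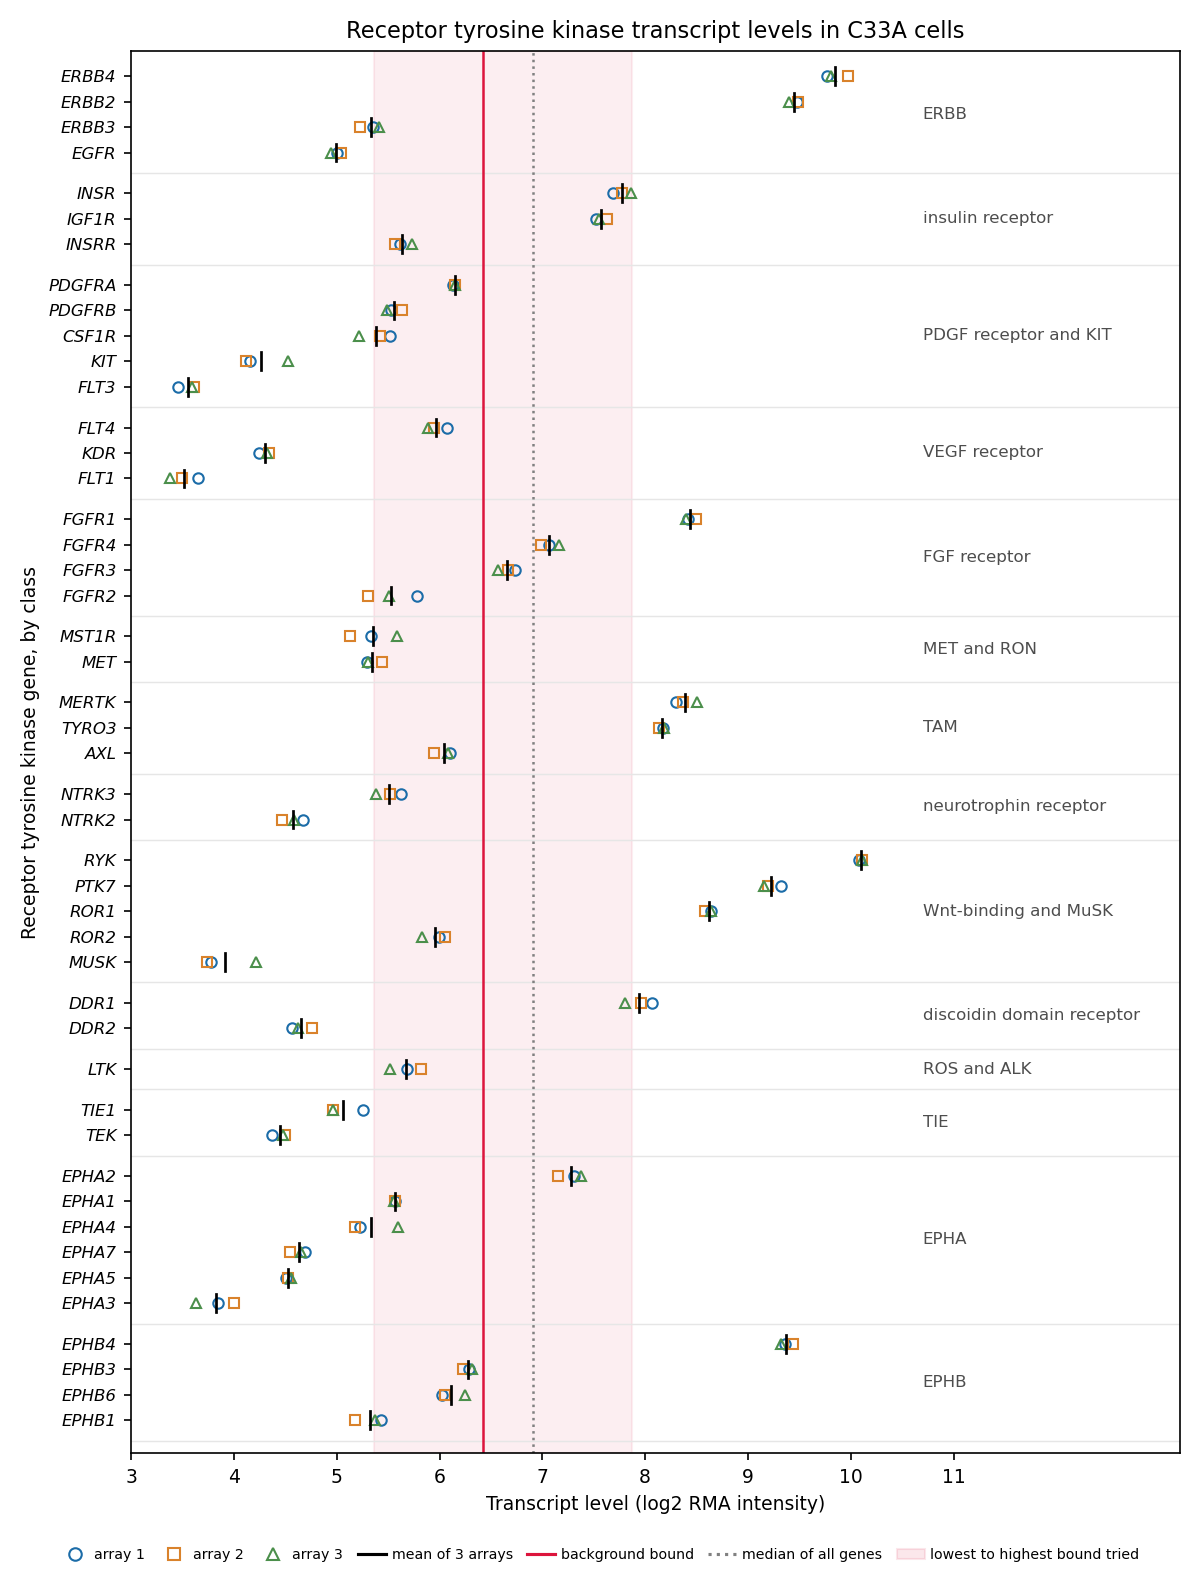
Transcript level (x axis, log2 RMA intensity) of each of the 46 measured receptor tyrosine kinase genes (y axis, grouped by receptor class), with 1 symbol per array and a bar at the mean. The red line is the background bound of 6.42 log2, the shading spans the lowest and highest bound tried, and the dotted line is the median of all genes. RYK, ERBB4, ERBB2, EPHB4 and PTK7 sit above 9 log2 on all arrays, while no gene of the PDGF receptor and KIT or VEGF receptor classes reaches the bound.

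The ERBB receptors split evenly around the bound. ERBB4, a receptor for neuregulins, had levels of 9.77, 9.97 and 9.81 log2 on arrays 1, 2 and 3, a mean of 9.85 ± 0.11 (SD, n = 3), higher than 90.2% of all genes. ERBB2, which binds no known ligand and signals as a partner of the other ERBB chains, had levels of 9.47, 9.48 and 9.40 log2, with a mean of 9.45 ± 0.05 (SD, n = 3). Both were far above the bound on every array. EGFR, the receptor for epidermal growth factor, had levels of 5.01, 5.04 and 4.94 log2, a mean of 5.00 ± 0.05 (SD, n = 3). ERBB3, a neuregulin receptor with little kinase activity of its own, had levels of 5.35, 5.23 and 5.41 log2, a mean of 5.33 ± 0.09 (SD, n = 3). On each array both of them lay below 6 log2, and their means stayed under each bound tried.

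The receptors of the Wnt-binding group, most of which have weak or no kinase activity, included the member of highest signal. RYK, a Wnt co-receptor, had levels of 10.08, 10.11 and 10.11 log2, a mean of 10.10 ± 0.02 (SD, n = 3), higher than 92.4% of all genes. PTK7, a pseudokinase of planar cell polarity, had levels of 9.32, 9.19 and 9.15 log2, with a mean of 9.22 ± 0.09 (SD, n = 3). ROR1, a receptor for WNT5A, had levels of 8.64, 8.59 and 8.64 log2, a mean of 8.62 ± 0.03 (SD, n = 3). These 3 genes lay above each bound tried. Its relative ROR2 averaged 5.96 ± 0.12 log2 and MUSK, the agrin-activated receptor of the neuromuscular junction, 3.91 ± 0.26 log2 (SD, n = 3 each). Of 6 members known as pseudokinases or weak kinases, counting ERBB3, ROR2 and EPHB6 with these 3, 3 (50%) exceeded the bound. This is near the 56.4% of all measured genes.

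Of the ephrin receptors, which read ligands on neighbouring cells, EPHB4 stood out by its signal. EPHB4, known from venous endothelium and epithelia, had levels of 9.36, 9.44 and 9.32 log2, a mean of 9.37 ± 0.06 (SD, n = 3). EPHA2, an epithelial ephrin-A receptor, had levels of 7.31, 7.15 and 7.37 log2, with a mean of 7.28 ± 0.12 (SD, n = 3). EPHA2 passed the bound but not its 99th percentile version. EPHB3 and EPHB6 stood just under the bound. EPHA1 averaged 5.57 ± 0.01, EPHA4 5.33 ± 0.23 and EPHB1 5.32 ± 0.13 log2 (SD, n = 3 each). The receptors best known from neural development, EPHA7, EPHA5 and EPHA3, averaged 4.63 ± 0.08, 4.53 ± 0.03 and 3.83 ± 0.19 log2 (SD, n = 3 each). In all, 2 of 10 measured ephrin receptor genes exceeded the bound, against 56.4% of all genes.

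Of the fibroblast growth factor receptors 3 of 4 exceeded the bound, against 56.4% of all genes. With the 99th percentile as bound only FGFR1 passed, against 37.2% of all genes. With olfactory receptor genes as the only silent family all 4 passed, against 72.2% of all genes. FGFR1 had levels of 8.42, 8.50 and 8.39 log2, a mean of 8.44 ± 0.05 (SD, n = 3). FGFR4 had levels of 7.06, 6.99 and 7.16 log2, and FGFR3 had levels of 6.73, 6.66 and 6.57 log2. FGFR3 came closest to the bound of all members above it. FGFR2 had levels of 5.78, 5.30 and 5.51 log2, a mean of 5.53 ± 0.24 (SD, n = 3), and its range of 0.48 log2 between arrays was the widest of the 46 members.

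Both TAM receptors other than AXL lay in the tertile of highest level. These receptors bind GAS6 and protein S and act in the clearance of dying cells. MERTK had levels of 8.30, 8.37 and 8.50 log2, a mean of 8.39 ± 0.10 (SD, n = 3). TYRO3 had levels of 8.17, 8.13 and 8.18 log2, a mean of 8.16 ± 0.03 (SD, n = 3). It passed the tertile cut of 8.14 log2 by less than its SD, with array 2 under the cut. AXL averaged 6.04 ± 0.08 log2 (SD, n = 3), under the bound on each array.

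The metabolic receptors were measured near the middle of all genes. INSR, the insulin receptor, had levels of 7.68, 7.77 and 7.86 log2, a mean of 7.77 ± 0.09 (SD, n = 3). IGF1R, the receptor for insulin-like growth factors, had levels of 7.52, 7.63 and 7.56 log2, with a mean of 7.57 ± 0.06 (SD, n = 3). Its 2 probe sets differed, at 8.32 and 6.81 log2. Both passed the bound of 6.42 log2, also with either probe set of IGF1R. INSRR, a related receptor that senses alkaline conditions, averaged 5.64 ± 0.08 log2 (SD, n = 3). DDR1, a collagen receptor of epithelia, had levels of 8.07, 7.96 and 7.81 log2, a mean of 7.94 ± 0.13 (SD, n = 3). Its 3 probe sets gave 7.94, 7.96 and 7.94 log2. DDR2, the collagen receptor of connective tissue, averaged 4.65 ± 0.10 log2 (SD, n = 3), and its 2 probe sets, at 5.13 and 4.17 log2, were both under each bound tried.

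In the classes of PDGF receptors and KIT, VEGF receptors, TIE receptors, neurotrophin receptors, MET and RON, and in LTK, no measured member exceeded the bound. These groups hold 5, 3, 2, 2, 2 and 1 measured genes in that order, and 56.4% of all genes exceeded the bound. Of the class of PDGF receptors and KIT, the platelet-derived growth factor receptors PDGFRA and PDGFRB averaged 6.15 ± 0.01 and 5.55 ± 0.07 log2, and CSF1R, the macrophage colony-stimulating factor receptor, 5.38 ± 0.15 log2 (SD, n = 3 each). KIT, the stem cell factor receptor, had levels of 4.15, 4.12 and 4.53 log2, and FLT3, a receptor of blood progenitors, averaged 3.55 ± 0.09 log2 (SD, n = 3). The VEGF receptor genes FLT4, KDR and FLT1 averaged 5.97 ± 0.10, 4.30 ± 0.05 and 3.51 ± 0.14 log2 (SD, n = 3 each). The angiopoietin receptor TEK and its partner TIE1 averaged 4.45 ± 0.07 and 5.06 ± 0.17 log2 (SD, n = 3 each). The neurotrophin receptors NTRK3 and NTRK2 averaged 5.51 ± 0.12 and 4.57 ± 0.11 log2, and LTK, a relative of ALK, 5.68 ± 0.15 log2 (SD, n = 3 each). Of these, KDR, KIT, FLT3, FLT1, TEK, TIE1 and NTRK2 stayed under each bound tried. With olfactory receptor genes as the only silent family PDGFRA, PDGFRB, CSF1R, FLT4, NTRK3 and LTK passed, as did 72.2% of all genes. The hepatocyte growth factor receptor MET, known from many carcinomas, had levels of 5.29, 5.45 and 5.30 log2, a mean of 5.35 ± 0.09 (SD, n = 3). Its relative MST1R averaged 5.35 ± 0.23 log2 (SD, n = 3), so neither gene of this pair reached the bound.

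The cultures gave close values for the same gene. The median SD between cultures was 0.09 log2 for the members and 0.08 log2 for all genes. It ranged among members from 0.0052 log2 for EPHA1 to 0.26 log2 for MUSK. For 26 of the 46 members it was under the median SD of all genes in the same decile of level. None of the 46 members had a range above 0.5 log2 between arrays, against 4.14% of all genes. Array 3 gave the highest value of KIT, MST1R, EPHA4 and MUSK, 4 of the 5 members with ranges over 0.4 log2, and all 5 lay below the bound. The median SD of all genes was 0.14 log2 in the lowest decile of level and 0.04 log2 in the highest. Array 1 was highest for 14 members, array 2 for 17 and array 3 for 15, so no array was high for most of the list.

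Of 65 measured ligand genes of these receptors, 23 (35.4%) exceeded the bound, against 56.4% of all genes, with a median level of 6.09 log2. The count was 6 with the 99th percentile as bound, against 37.2% of all genes, and 40 with olfactory receptor genes as the only silent family, against 72.2% of all genes. For the ERBB receptors 3 of 10 ligands passed. NRG1, a neuregulin that binds ERBB3 and ERBB4, was at 8.80 ± 0.04 log2, NRG2 at 7.77 ± 0.02 log2 and HBEGF, which binds EGFR and ERBB4, at 7.34 ± 0.06 log2 (SD, n = 3 each). NRG4, NRG3, EREG, EGF, BTC, TGFA and EPGN lay between 4.89 and 2.12 log2. NRG1, NRG2 and HBEGF thus make up 30% of the 10 measured ERBB ligands, against 56.4% of all genes above the bound. With the 99th percentile as bound only NRG1 of this list passed, against 37.2% of all genes.

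For the fibroblast growth factor receptors, FGF2, a broadly acting ligand, was at 8.82 ± 0.09 log2, FGF4 at 7.32 ± 0.13 log2, FGF22 at 6.79 ± 0.05 log2 and FGF18 at 6.48 ± 0.13 log2 (SD, n = 3 each). FGF18 exceeded the bound of the array itself on 2 of 3 arrays. The other 14 of 18 genes of the list were under the bound. They ran from FGF3, with 6.51, 6.20 and 6.54 log2 on the 3 arrays and so above on 2 of them, over FGF8, FGF17, FGF19, FGF6, FGF10, FGF20, FGF23, FGF1, FGF21, FGF9, FGF5 and FGF16 down to FGF7 at 3.40 ± 0.26 log2 (SD, n = 3). KLB and KL, the klotho co-receptors of endocrine FGFs, were at 4.48 ± 0.13 and 3.91 ± 0.20 log2 (SD, n = 3 each). For the TAM receptors, PROS1, which encodes protein S, was at 8.35 ± 0.05 log2 and GAS6 at 6.03 ± 0.19 log2 (SD, n = 3 each). PROS1 rests on 2 probe sets.

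Of the ephrins 6 of 8 exceeded the bound, against 56.4% of all genes. EFNA4 was at 7.84 ± 0.08 log2 and EFNB1 at 7.51 ± 0.12 log2 (SD, n = 3 each). EFNA2, EFNA5, EFNA3 and EFNB3 followed between 7.24 and 6.86 log2. EFNA1, a main ligand of EPHA2, was under the bound at 5.94 ± 0.04 log2 (SD, n = 3). EFNB2, the preferred ligand of EPHB4, had 3.99, 4.13 and 4.19 log2, a mean of 4.10 ± 0.11 (SD, n = 3), under the bound on every array while EPHB4 was above it on every array. With the 99th percentile as bound none of the 8 ephrins passed, against 37.2% of all genes. IGF1, a ligand of IGF1R, was at 3.83 ± 0.08 log2 (SD, n = 3), and other ligands of this receptor were not analysed here.

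Of the VEGF ligands 3 of 4 exceeded the bound, against 56.4% of all genes. VEGFC, a ligand of FLT4, had levels of 10.56, 10.64 and 10.60 log2, a mean of 10.60 ± 0.04 (SD, n = 3), higher than 95.7% of all genes. VEGFB was at 8.43 ± 0.03 log2 and VEGFA at 7.55 ± 0.09 log2 (SD, n = 3 each), while PGF was under the bound at 6.22 ± 0.10 log2 (SD, n = 3). All 3 VEGF receptor genes were under it, though FLT4, at 5.97 log2, passed the lower bounds of 5.86, 5.43 and 5.37 log2. Of 8 ligands of the PDGF receptors, KIT, CSF1R and FLT3, FLT3LG at 7.74 ± 0.05 log2 and PDGFA at 6.50 ± 0.13 log2 passed, and KITLG, the ligand of KIT, was lowest at 3.27 ± 0.32 log2 (SD, n = 3 each). HGF, the ligand of MET, was at 3.07 ± 0.17 log2, and MST1, the ligand of MST1R, was at 6.39 ± 0.12 log2 (SD, n = 3 each), its mean just under the bound and 2 of its 3 arrays above their own.

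**Figure D3:**
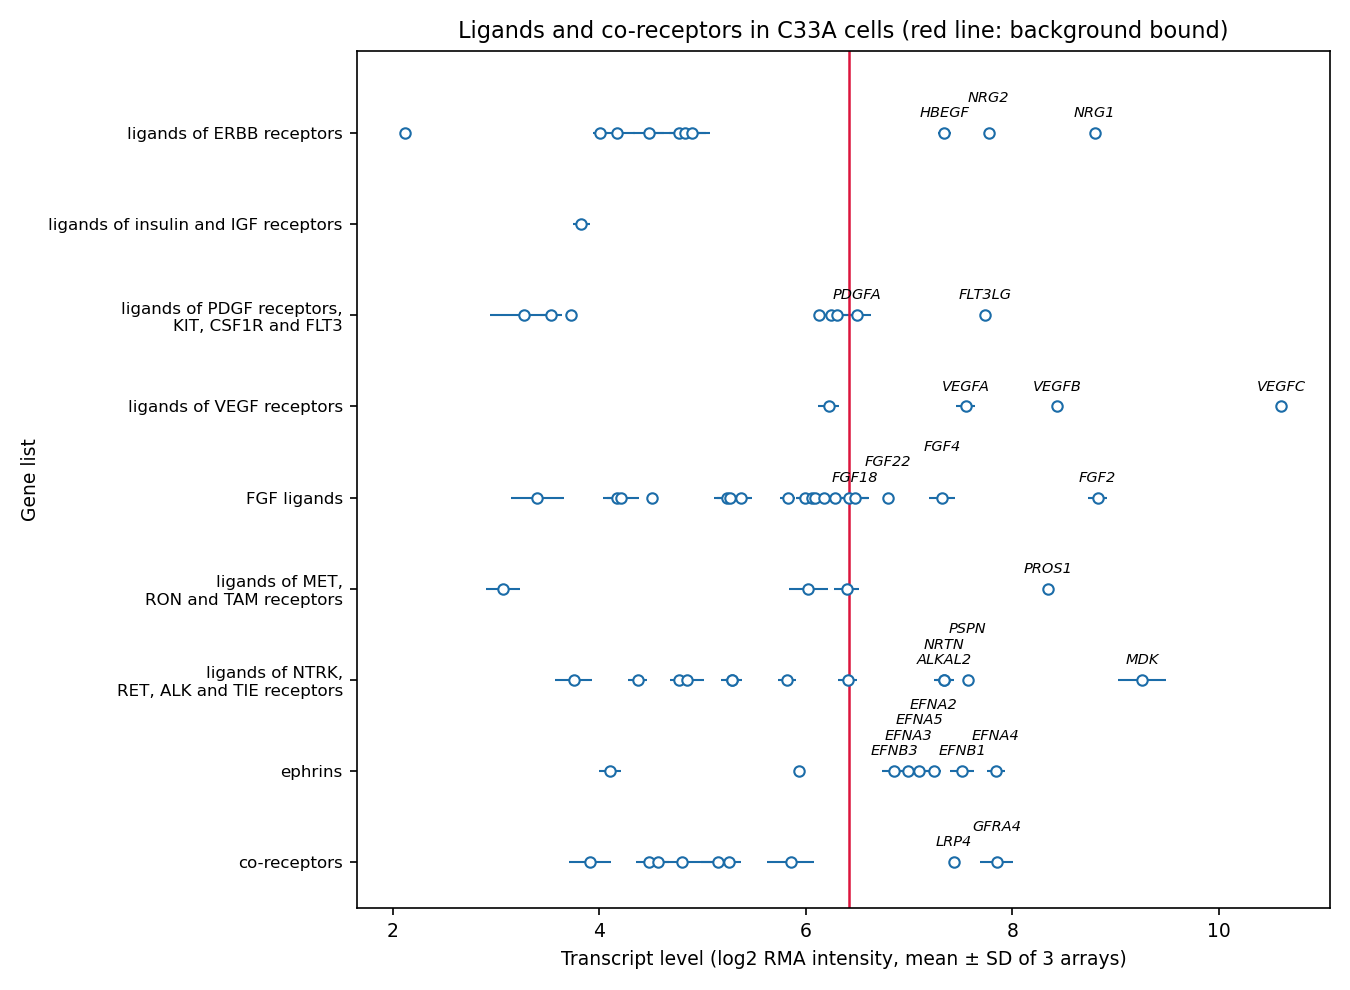
Transcript levels of ligand and co-receptor genes (x axis, log2 RMA intensity, mean and SD of 3 arrays), 1 row per list, with the bound of 6.42 log2 in red and names for genes above it. VEGFC, MDK, FGF2 and NRG1 are the ligands above 8.7 log2, and 6 of 8 ephrins lie above the bound.

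Most genes that carry the signal inside the cell exceeded the bound. Of 33 measured adaptor, RAS-MAPK and PI3K-AKT genes, 29 (87.9%) did so, against 56.4% of all genes. Their median was 9.32 log2, against 6.91 log2 for all genes. Among 19 adaptors and proximal effectors 15 passed, led by PTPN11, the phosphatase SHP2, at 11.12 ± 0.03 log2 and the phospholipase PLCG1 at 10.58 ± 0.07 log2, with the lowest, IRS4, at 4.30 ± 0.12 log2 (SD, n = 3 each). All 6 measured genes of the RAS-MAPK list passed, from ARAF at 10.23 ± 0.01 log2 and MAP2K2 at 9.91 ± 0.04 log2 down to the scaffold KSR1 at 6.76 ± 0.05 log2 (SD, n = 3 each). All 8 measured genes of the PI3K-AKT list passed, from AKT1 at 10.46 ± 0.01 log2 and the regulatory subunit PIK3R3 at 10.13 ± 0.05 log2 down to PIK3CD at 6.70 ± 0.08 log2 (SD, n = 3 each). Another 5 and 4 genes of these lists were not analysed here. Of 19 negative regulators 13 (68.4%) passed, against 56.4% of all genes. With the 99th percentile as bound 6 of them passed, against 37.2% of all genes. SPRY1, a Sprouty inhibitor of RAS signalling, was at 9.86 ± 0.02 log2 and the phosphatase PTPN1 at 9.53 ± 0.09 log2. SPRY3 was lowest at 4.64 ± 0.09 log2 (SD, n = 3 each).

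**Figure D4:**
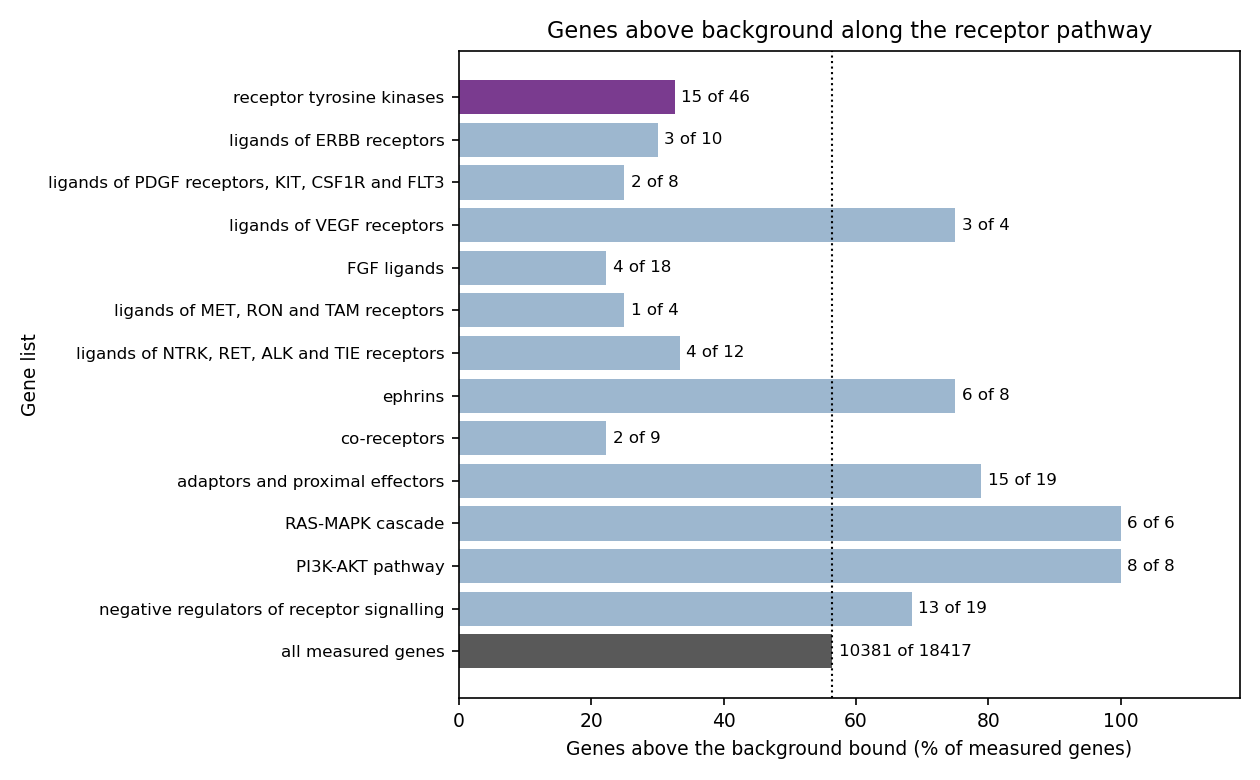
Share of measured genes above the background bound (x axis, %) for the receptor tyrosine kinase genes, lists of pathway genes with at least 4 measured members, and all measured genes (dotted line), with the counts beside each bar. The receptors have 15 of 46 genes above the bound, the RAS-MAPK and PI3K-AKT lists 6 of 6 and 8 of 8, and all genes 56.4%.

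Promoter sequence was compared with level for 42 of the 46 members, 14 of them above the bound, that have an entry in the RefSeq promoter table (GRCh38.p14). An entry runs from 250 bases before to 50 bases after 1 start of the gene, which need not be the start used in C33A cells. CpG dinucleotides, the sites of DNA methylation, are dense at the promoters of many widely active genes, and their density is given as observed over expected from the C and G content. The sequences show 3 receptors above the bound (RYK, ERBB4 and EPHB4) and 2 below it (EGFR, rich in CpG, and DDR2, without any), with CpG in capitals, 5′ to 3′ on the strand of the gene.
RYK: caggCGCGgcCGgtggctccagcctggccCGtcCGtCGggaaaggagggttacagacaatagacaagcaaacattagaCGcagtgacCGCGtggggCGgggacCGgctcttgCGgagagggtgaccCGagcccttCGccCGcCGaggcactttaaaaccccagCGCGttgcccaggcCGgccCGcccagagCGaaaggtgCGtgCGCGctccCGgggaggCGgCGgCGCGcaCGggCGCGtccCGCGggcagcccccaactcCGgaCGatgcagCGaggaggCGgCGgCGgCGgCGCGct
ERBB4: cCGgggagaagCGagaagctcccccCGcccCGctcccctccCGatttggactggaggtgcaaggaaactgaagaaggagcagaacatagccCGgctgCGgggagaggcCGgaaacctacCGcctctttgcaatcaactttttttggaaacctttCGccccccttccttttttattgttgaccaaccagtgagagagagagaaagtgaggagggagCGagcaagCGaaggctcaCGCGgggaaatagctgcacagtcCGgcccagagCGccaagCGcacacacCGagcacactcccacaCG
EPHB4: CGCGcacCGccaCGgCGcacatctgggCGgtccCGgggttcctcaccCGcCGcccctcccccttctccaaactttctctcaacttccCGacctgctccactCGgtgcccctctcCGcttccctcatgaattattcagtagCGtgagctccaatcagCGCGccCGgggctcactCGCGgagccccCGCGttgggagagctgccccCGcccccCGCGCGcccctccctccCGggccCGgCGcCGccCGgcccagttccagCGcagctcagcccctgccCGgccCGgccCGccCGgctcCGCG
EGFR: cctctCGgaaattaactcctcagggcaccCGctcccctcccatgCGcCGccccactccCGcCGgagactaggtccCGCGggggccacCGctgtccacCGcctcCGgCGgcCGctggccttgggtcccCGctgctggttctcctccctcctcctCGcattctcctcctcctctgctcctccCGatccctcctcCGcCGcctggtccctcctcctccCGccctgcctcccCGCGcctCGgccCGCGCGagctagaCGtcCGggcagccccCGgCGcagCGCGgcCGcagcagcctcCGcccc
DDR2: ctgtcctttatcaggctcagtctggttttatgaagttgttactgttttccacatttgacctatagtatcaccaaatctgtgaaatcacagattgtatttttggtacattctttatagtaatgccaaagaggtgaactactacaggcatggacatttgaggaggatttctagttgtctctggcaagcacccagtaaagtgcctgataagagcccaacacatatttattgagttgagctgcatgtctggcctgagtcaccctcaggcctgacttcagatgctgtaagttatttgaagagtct
The RYK window (chr3:134250810-134251109, minus strand) holds 43 CpG, that of EPHB4 (chr7:100827474-100827773, minus strand) 36, and that of ERBB4 (chr2:212538753-212539052, minus strand) 19. The EGFR window (chr7:55018767-55019066, plus strand) holds 33 CpG although EGFR lay below each bound tried, and the DDR2 window (chr1:162630613-162630912, plus strand) holds 0.

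Median CpG observed over expected was 0.87 for the 14 members above the bound and 0.68 for the 28 members not above it. For all measured genes with an entry the medians were 0.86 above the bound and 0.43 not above it. Among members not above the bound, FGFR2 reached 1.15, KIT 0.95 and EGFR 0.89. Above it, IGF1R had 1.19, and DDR1 was lowest at 0.32. Across the 42 members Spearman's rho between level and CpG ratio was 0.34, against 0.52 across 14239 genes. These are descriptions across genes, which are not independent replicates and share the same 3 arrays. The GC box GGGCGG, the binding word of SP1, was present on either strand in 31 of 42 member windows (73.8%), against 60.0% of all measured genes with an entry. It was present in 11 of 14 members above the bound (78.6%), against 72.7% of all such genes above it, and in 20 of 28 members not above it (71.4%), against 41.4% of all such genes not above it. The TATA box word TATAAA was found in the windows of FLT1 and DDR2 (4.76%, against 9.0%). The E2F words TTTCCCGC, TTTGGCGC, TTTCGCGC and TTTGCCGC were found on either strand in those of INSR, KIT and TEK (7.14%, against 4.52%).

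**Figure D5:**
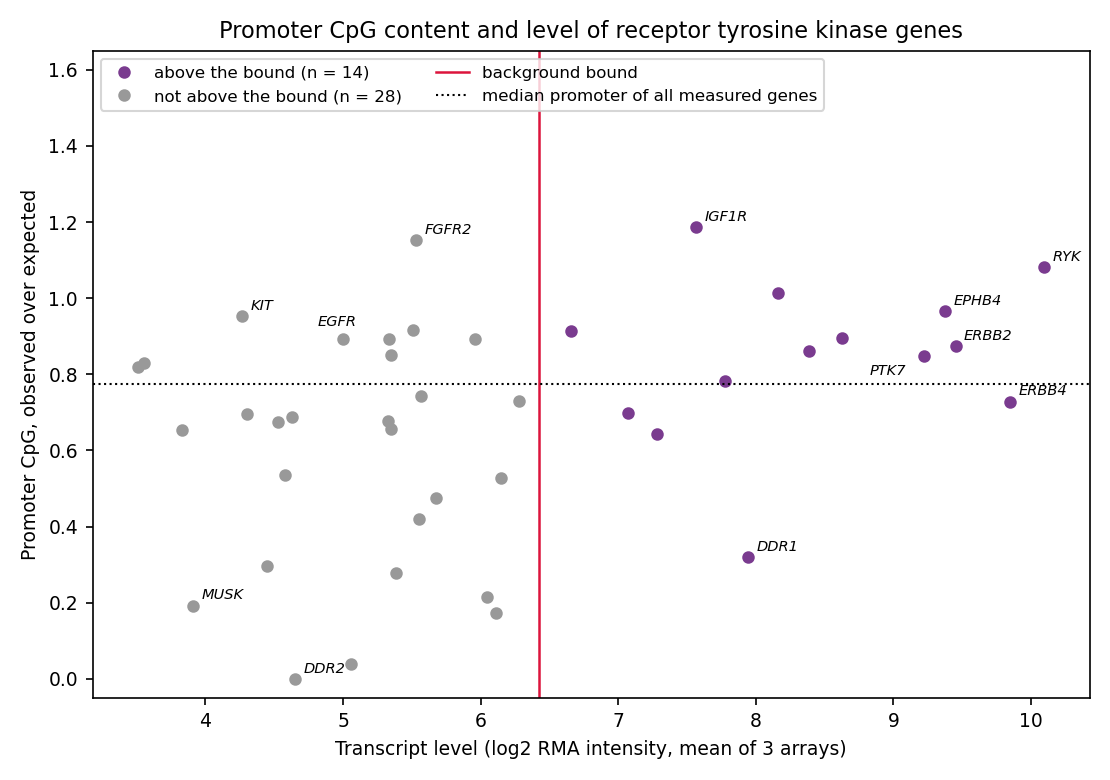
Promoter CpG ratio (y axis, observed over expected in a window of 300 bases) against transcript level (x axis, log2 RMA intensity, mean of 3 arrays) for 42 receptor tyrosine kinase genes, with the bound in red and the median ratio of all measured genes, 0.77, dotted. Of the 14 genes above the bound DDR1 has the lowest ratio, 0.32, and genes not above it range from 0 (DDR2) to 1.15 (FGFR2).

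Some members lie next to each other. PDGFRA, KIT and KDR follow each other on chromosome 4 with no other protein-coding gene between their starts in the RefSeq table, and CSF1R and PDGFRB are neighbours on chromosome 5. All 5 were under the bound of 6.42 log2, as were 31 of the 46 members and 43.6% of all genes. With olfactory receptor genes as the only silent family, PDGFRA, CSF1R and PDGFRB passed and KIT and KDR did not. The classes of these genes lie under the main bound throughout, so position and class cannot be told apart.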

How the data were processed

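The authors hybridized RNA of 3 cultures to Affymetrix Human Gene 1.0 ST arrays, normalized the intensities with RMA, the tool named in the submitters' processing notes, and used oneChannelGUI, both without a stated version. As deposited, each value is a log2 intensity of 1 probe set. RMA gives all arrays 1 distribution, so a shift shared by all genes cannot be seen, and it compresses low signal.

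Of 33297 probe sets, 19460 with 1 symbol in the platform annotation were used, while 1754 with several symbols and 12083 without a listed gene were not. Probe sets of a gene were averaged on each array (769 genes had several), which gave 18417 genes, 18392 of them in the RefSeq gene table. The SD is over the 3 arrays.

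All samples form 1 group, so no test was made. The members and lists were chosen by name, with earlier results of these data known, and the promoter windows shown were chosen after the levels were seen. All members are named, those above the bound with each array's value. Of each pathway list the 2 highest genes and the lowest are named, plus ligands of members above the bound. Further named genes, among them VEGFA and KLB, were chosen after their values were seen. The functions were tested on simulated levels. Levels were computed with pandas 2.3.3 and NumPy 2.4.6 in Python 3.11.15, rank correlations with SciPy 1.17.1, and figures with matplotlib 3.10.9.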

Additional observations from a re-analysis of the deposited data

How the results depend on the processing

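The count of receptor genes above the bound depended on the choice of silent families. It was 15 as reported (all genes 56.4%), 21 with their 90th percentile (all genes 64.9%), 10 with their 99th (all genes 37.2%), 27 without the keratin-associated protein genes (all genes 71.2%) and 28 with olfactory receptor genes alone (all genes 72.2%). All genes above the bound numbered 10381, but 6855 with the 99th percentile, and genes of all pathway lists 67, but 36. When only genes above the bound were divided into tertiles, 5 receptor genes lay in the highest, against 9. With genes of 1 probe set only, the median level of the receptor genes was 5.57 log2, against 5.60, on 43 genes, of which 13 exceeded the bound, since DDR1 and IGF1R have several. Leaving out each array in turn, it ran from 5.59 to 5.63 log2, the count above the bound stayed at 15 genes, and these were the same genes. A bound per array, centring on array medians, symbols as written and the highest probe set of a gene also kept these 15. With the highest probe set IGF1R was at 8.32 log2 and DDR2 at 5.13 log2. Of the counts of single pathway lists under the alternatives, 138 stayed within 1.5 times the reported count and 18 did not. No paired analysis was possible because all samples belong to 1 group. With 3 arrays and no detection call, levels near the bound cannot be called present or absent.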

Other observations

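Ligands of receptors that were not analysed here also gave signal. MDK, which encodes the growth factor midkine, a ligand of ALK, had the highest level among ligands of the NTRK, RET, ALK and TIE receptors, at 9.26 ± 0.23 log2 (SD, n = 3). Of the GDNF family, whose members signal through RET, PSPN was at 7.57 ± 0.01 log2 and NRTN at 7.34 ± 0.08 log2, and ARTN at 6.40 ± 0.09 log2 (SD, n = 3 each), its mean just under the bound and 1 of its 3 arrays above its own. Of the GFRA co-receptors of that family, GFRA4, which binds persephin, was at 7.85 ± 0.16 log2, while GFRA1, GFRA3 and GFRA2 lay under the bound, between 5.85 and 4.80 log2. ALKAL2, another ALK ligand, was at 7.34 ± 0.09 log2 (SD, n = 3). PTN and ALKAL1 of the same list were under each bound tried, at 5.29 ± 0.07 and 4.37 ± 0.09 log2 (SD, n = 3 each). The angiopoietin gene ANGPT1, a ligand of TEK, had the lowest level of the list, at 3.75 ± 0.18 log2 (SD, n = 3). LRP4, the agrin receptor that works with MUSK, was at 7.43 ± 0.01 log2 (SD, n = 3), while MUSK was under each bound tried.

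The list of negative regulators held Sprouty and dual-specificity phosphatase genes on both sides of the bound. SPRY1 was at 9.84, 9.85 and 9.87 log2, SPRY4 at 7.79 ± 0.21 log2 and SPRY2 at 6.54 ± 0.16 log2, while SPRY3 lay under it (SD, n = 3 each). SPRY2 exceeded the bound of the array itself on 2 of 3 arrays. DUSP5, a nuclear phosphatase of ERK, was above the main bound at 7.55 ± 0.06 log2 (SD, n = 3). DUSP6, a cytoplasmic phosphatase of ERK, was at 5.70, 6.33 and 5.88 log2, and DUSP4 was at 4.90 ± 0.07 log2 (SD, n = 3), both under the bound on each array. These genes, other than SPRY1 and SPRY3, were named after their values were seen.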
